A study of Mus musculus with 33 samples.

Results

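The proteasome is the protease that degrades most ubiquitin-tagged proteins, and the transcripts described here are those of its subunits and dedicated assembly factors. Members were all protein-coding genes whose symbol begins with Psma, Psmb, Psmc, Psmd, Psme, Psmf or Psmg followed by a number, with a mean normalised read count of at least 5 in each of the 6 deposited tables. Of 50420 gene identifiers in the series, 49 carried such a symbol and 47 met the level. The 2 that did not are Psma8, a core subunit known from the testis, which reached the level in 2 tables, and Psmb11, the catalytic subunit known from the thymic cortex, which reached it in 3.

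Male mice of 3 genotypes, C57BL/6J (B6), CASTEiJ (CAST) and F1_C57BL/6JxCASTEiJ (F1, from B6 mothers and CAST fathers), were 15 to 23 weeks old and received 1 mg of tunicamycin (TM) per kg in DMSO, or DMSO alone as the control, by intraperitoneal injection. Sample labels put the collection of liver and kidney at 24 h after injection. A time of 8 h stands in the methods section, a difference that could not be settled. Each combination of tissue and genotype is 1 table normalised on its own. The liver tables held 2 TM and 3 control samples in B6 (TM replicates 1 and 3), 3 and 2 in CAST (control replicates 2 and 3) and 2 and 3 in F1 (TM replicates 1 and 2), and each kidney table held 3 and 3, for 33 samples in all. Libraries that did not cluster with their treatment had been removed by the authors, which can narrow the spread within groups, and with 6 mice per genotype the livers and kidneys came from the same animals. These are whole tissues, so fewer cells of a type and less RNA per cell cannot be told apart.

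Tunicamycin blocks N-linked glycosylation, so that misfolded glycoproteins gather in the endoplasmic reticulum (ER) and are sent back to the cytosol for the proteasome to degrade. The core particle is a barrel of outer alpha rings and inner beta rings, with the proteolytic sites on the subunits Psmb5, Psmb6 and Psmb7. In cells exposed to interferon these are replaced by Psmb8, Psmb9 and Psmb10, which gives the immunoproteasome, known for producing peptides for class I antigen presentation. The regulatory particle, with a ring of Psmc ATPases and a set of Psmd non-ATPase subunits, binds ubiquitin chains and unfolds substrates, and the Psme activators can cap the barrel in its place. Members are described below in these classes: 7 alpha subunits, 7 constitutive beta subunits, 3 immune catalytic subunits, 6 ATPases, 11 non-ATPases, 3 chaperones of the ATPase ring, 5 activators, the inhibitor Psmf1 and 4 assembly factors of the core.

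Between 3355262 and 23094521 reads were assigned to genes in a library, with a median of 13143216. Hepatocyte markers (summed normalised counts of at least 594277 in liver controls and at most 1871 in kidney controls) and kidney tubule markers (at least 31022 in kidney controls and at most 152 in liver controls) fitted the tissue labels. All 4 genes used as a check of the treatment were called higher in each table, among them the ER chaperone Hspa5, at 3.67 to 5.35 on the log2 scale. A set of 5 libraries stood apart, with over 400 CPM on olfactory and vomeronasal receptor genes. CPM here are counts scaled to the reads of the library outside predicted genes (Gm names). The 5 were B6 liver control 2 and TM 3, F1 liver control 2 and TM 2, and F1 kidney control 1. The last was also the shallowest. In F1 liver control 2 predicted genes took 85.2% of the reads, the predicted gene Gm10800 alone 61.5%. Scaled to all of its reads, that library would lie under 400.

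Before the responses, the way reads were shared between a gene and its copies has to be shown, because it set the counted level of many members. A total of 13 members had 24 listed copies elsewhere in the genome, processed pseudogenes or, for Psme2, the annotated gene Psme2b, that matched the coding sequence at 90% identity or more over at least 70% of its length. Such copies lack introns, so a read that crosses an exon junction of the parent gene can lie unbroken in the copy. The pairs below are shown because the 50 bases across the junction, the length of 1 sequenced read, were identical or differed at 1 base. In each parent sequence the capitals mark the last base of the upstream exon and the first of the downstream exon, and in a copy they mark a base that differs from the parent.
Psme2, exons 1 and 2: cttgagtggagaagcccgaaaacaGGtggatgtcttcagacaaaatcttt
Psme2b: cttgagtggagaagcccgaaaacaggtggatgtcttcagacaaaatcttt
Psma3, exons 3 and 4: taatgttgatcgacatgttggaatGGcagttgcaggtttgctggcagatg
Gm13835: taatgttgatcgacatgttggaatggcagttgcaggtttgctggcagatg
Psmb5, exons 1 and 2: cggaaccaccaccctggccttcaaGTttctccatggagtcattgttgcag
Gm3375: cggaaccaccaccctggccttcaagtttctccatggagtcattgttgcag
Psmb6, exons 3 and 4: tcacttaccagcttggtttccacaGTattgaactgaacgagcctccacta
Psmb6-ps2: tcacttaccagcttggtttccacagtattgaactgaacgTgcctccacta

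These sequences are read from GENCODE transcripts of the GRCm38 build, where Psme2 lies at chr14:55587441-55591113 on the minus strand and Psme2b at chr11:48945354-48946190 on the minus strand. Psma3 is at chr12:70974621-70996347 (plus) and Gm13835 at chr6:31141979-31142663 (minus). Psmb5 is at chr14:54614119-54618022 (minus) and Gm3375 at chr7:3181093-3181888 (plus). Psmb6 is at chr11:70525367-70527858 (plus) and Psmb6-ps2 at chr1:101385886-101386590 (plus). Each window lies within coding exons of the parent, and across the whole match the copies were 99.3% (Psme2b), 100% (Gm13835), 98.9% (Gm3375) and 92.1% (Psmb6-ps2) identical to it.

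In the B6 and CAST tables, made by Bowtie2 alignment against strain-specific genomes, a large part of the reads of these families was counted on the copies. Of all reads on Psme2 and its copies, 91.9% in B6 liver, 92.6% in CAST liver, 91.6% in B6 kidney and 91.5% in CAST kidney were on the copies. In the F1 tables, aligned with STAR to a genome with strain variants masked, the same share was 18.7% in liver and 18.4% in kidney. For Psma3 the shares on copies were 90.8%, 91.9%, 85.1% and 83.2% in the parental tables and 7.60% and 6.94% in the F1 tables. Psmb6 went from between 40.5% and 44.0% to between 0.0399% and 0.0972%, while Psmb5 kept 45.7% (liver) and 43.7% (kidney) of its family's reads on copies in the F1, against 66.3% to 70.6% in the parents. For all 13 members the share was higher in every parental table than in every F1 table, and for 9 of them it was over 50% in all 4 parental tables and in neither F1 table. Genotype and aligner cannot be told apart here. The counted level of these 13 genes is therefore not compared between parents and F1, and their responses are given with the reads of the copies added where that changed a call.

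**Figure D1:**
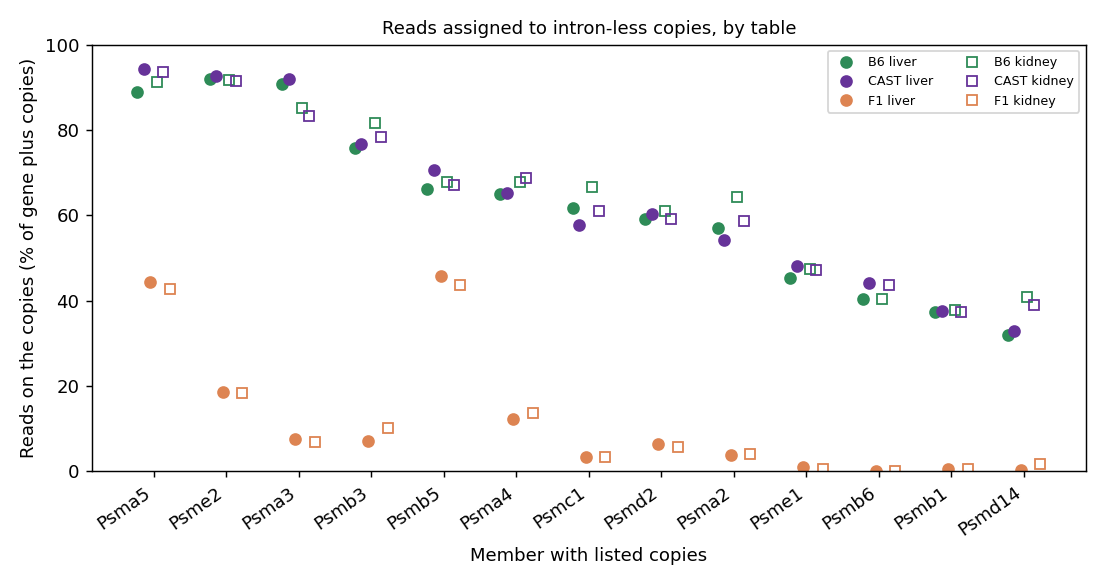
Share of reads assigned to intron-less copies, as a percentage of the reads on the gene and its copies together, for the 13 members with listed copies, with 1 point per table (circles liver, squares kidney). All parental points lie above both F1 points of the same gene, by the largest margin for Psma3 (83.2% to 91.9% against 6.94% and 7.60%).

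With this in mind, the response to TM was tested in each table for all genes with a mean of at least 5, and a gene was called when its adjusted p (limma, Benjamini-Hochberg over the table) was under 0.05 and its fold change at least 1.5. Few of the 47 members were called. In B6 liver no member was called higher or lower, against 4.8% and 6.45% of all genes tested, with 10 members at an unadjusted p under 0.05, as were 23.2% of all genes. That number was 6 without control 1 or control 3 and 14 without control 2. In CAST liver 2 were called higher and 1 lower (11.1% and 10.4% of all genes), and in F1 liver 0 and 2 (3.42% and 4.15%). The kidney tables had calls in the higher direction alone, 2 in B6 (9.73% of all genes), 3 in CAST (8.69%) and 9 in F1 (7.54%), with none lower (7.77%, 4.7% and 2.57%). The 9 of 47 in F1 kidney is the count that stands well above the share of all genes called there, the others being near or below it.

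The members' median log2 fold change was -0.07 in B6 liver, -0.13 in CAST liver, -0.06 in F1 liver, -0.04 in B6 kidney, 0.18 in CAST kidney and 0.48 in F1 kidney. All genes tested had medians of 0.09, -0.04, 0.21, -0.01, -0.05 and -0.13 in the same order. With 1 library left out the members' medians ran from -0.34 to 0.13 in B6 liver, from -0.30 to 0.09 in CAST liver, from -0.50 (without TM 1) to 0.37 (without TM 2) in F1 liver and from -0.10 to 0.03 in B6 kidney, so that no direction held there, and from 0.05 to 0.29 and from 0.38 to 0.59 in CAST and F1 kidney. The members' fold changes were positive for 22, 20 and 21 of the 47 in the liver tables, and for 20, 33 and 44 in the B6, CAST and F1 kidney tables. Every TM sample lay above every control sample for 32 members in F1 kidney (19.5% of all genes there), for 12 in CAST kidney (18%) and for 5 in B6 kidney (20.3%). The corresponding numbers in liver were 6 in B6 (18.2%), 7 in CAST (25.4%) and 4 in F1 (15.2%). Every TM sample lay below every control for 8 (19.9% of all genes), 13 (25.6%) and 5 (15.9%) members in B6, CAST and F1 liver and for 4 (18.7%), 2 (14.9%) and 0 (14.1%) in the kidneys.

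**Figure D2:**
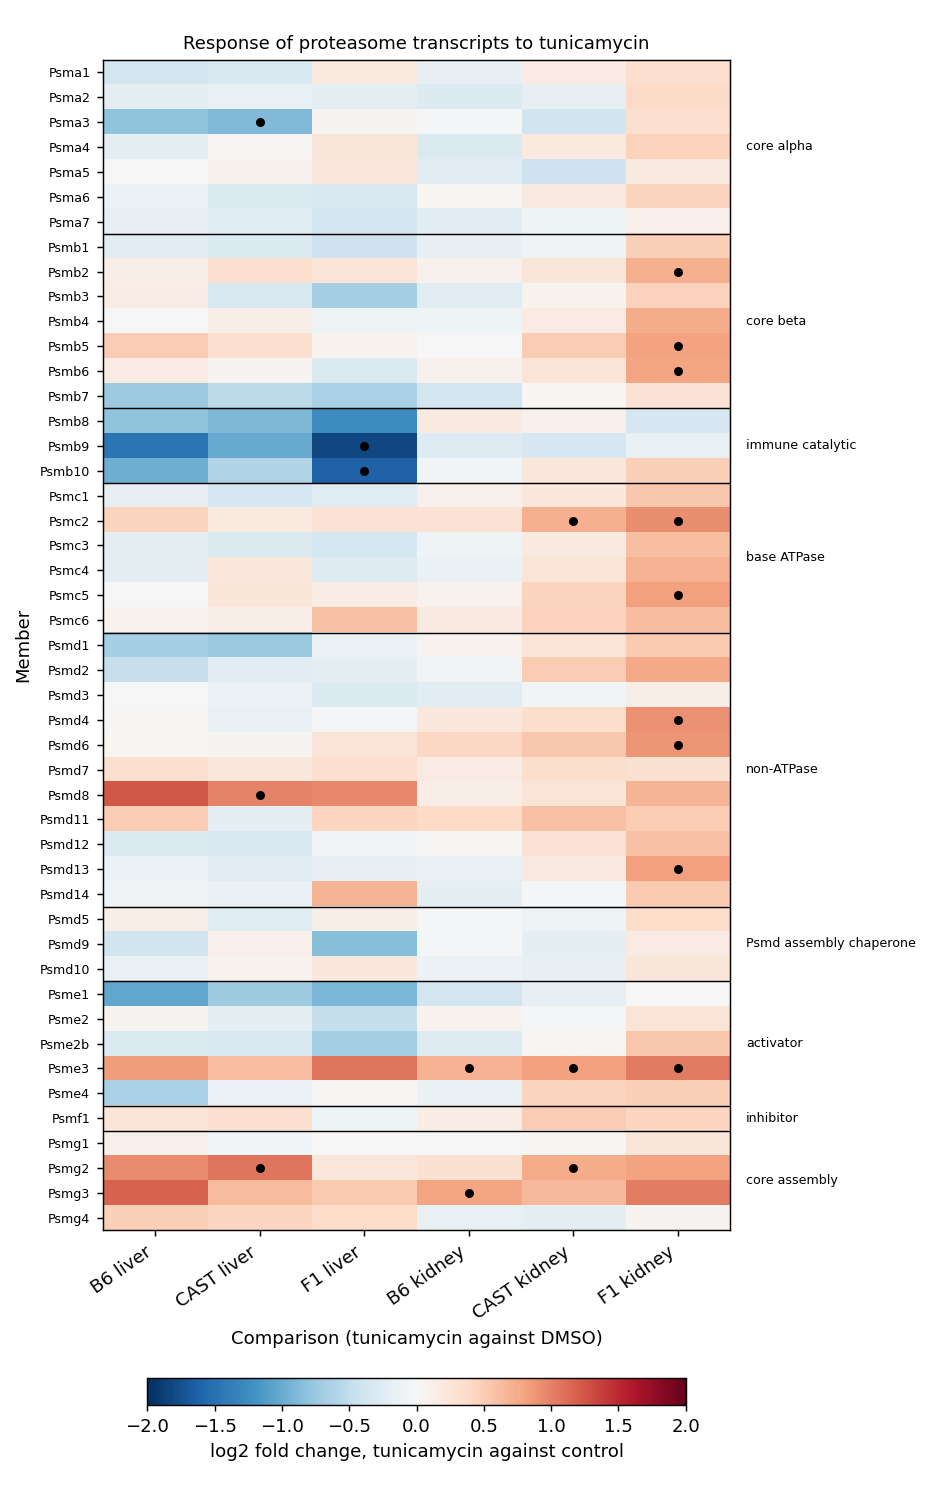
Heat map of the log2 fold change, TM against control, for the 47 members (rows, by class) in the 6 tables (columns), with a dot where the member was called. Psme3 is positive in every column, the immune catalytic subunits are negative in the liver columns down to -1.82, and most rows are positive in the F1 kidney column.

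These counts depended on single libraries. None of the 19 calls was kept when each library of its table was left out in turn, the adjusted p reaching at most 0.27, while no call changed sign. In F1 kidney the 9 calls became 0 without any of TM 1, TM 2 or TM 3, 5 without control 2 and 4 without control 3, but 13 without control 1, the shallow library with receptor counts. When fold changes were centred so that all genes had a median of 0, 16 members were called higher in F1 kidney. Of the 24064 genes tested there, 2628 were then called higher, against 1815 before. The median removed, -0.13, was 0.09 for genes with a mean of at least 20. In B6 liver, where 0 were called, leaving out control 2 and TM 3, both high in receptor genes, left 1 TM sample. That sample is then assumed to vary as the controls do. The members' median was -0.14 in this fit, against 0.04 for all genes. Leaving out the same kind of libraries in F1 liver (control 2 and TM 2), again with 1 TM sample, gave medians of 0.12 and 0.06. Without B6 liver TM 3 alone 2 members were called higher, and without control 2 alone 4 were called lower, as were 2 without TM 1. The CAST liver count of 2 higher fell to 0 without control 2 or TM 3, its 1 lower call, Psma3, was lost without any 1 of the 5 libraries (without control 2, control 3 or TM 2 other members were called lower, 1, 1 and 2 in number), and the 2 lower calls of F1 liver fell to 0 without control 1, control 3 or TM 2 and to 1 without TM 1. Without F1 liver TM 2, 1 member was called higher there. In B6 kidney the 2 calls became 0 without control 2, control 3 or TM 1 and 1 without TM 2 or TM 3. The 3 of CAST kidney became 6 without control 1, 0 without control 2 or TM 2 and 1 without TM 1 or TM 3.

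Among the alpha subunits, which form the outer rings and the gate of the barrel, 1 call was made in 6 tables. Psma3 was called lower in CAST liver, with normalised counts of 117 and 146 in the controls and 71.4, 68.3 and 71 in the TM samples. In B6 liver the controls were at 160.3, 118 and 163 and the TM samples at 86.3 and 79.9. Neither liver table had overlapping groups for Psma3, and the fold changes were -0.89 ± 0.26 (SE, adjusted p = 0.0323, limma) in CAST and -0.80 ± 0.31 (adjusted p = 0.137) in B6. In F1 liver, by contrast, Psma3 stood at 1175, 732 and 1053 in the controls and 1052 and 965 in the TM samples, at 0.06 ± 0.41. This is the gene whose parental reads lay mostly on copies, and the share on copies was itself higher in every TM sample than in every control of both parental livers (92.0% to 93.1% against 86.8% to 90.8% in B6, 93.0% to 93.9% against 89.3% to 91.0% in CAST). With the reads of its 3 copies added, Psma3 was at -0.33 ± 0.23 (adjusted p = 0.353) in CAST liver and at -0.29 ± 0.34 (adjusted p = 0.732) in B6 liver, and the groups overlapped in both.

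In kidney Psma3 had 193, 181 and 226 in B6 controls against 179.7, 197 and 204 after TM, and 318, 233 and 236 against 233, 171 and 190.3 in CAST. F1 kidney controls were at 996, 865 and 932 and the TM samples at 1444, 994 and 1134. The groups overlapped in B6 and F1, and in CAST the lowest control, 233.0, lay just above the highest TM sample, with no call in any of the 3. The class as a whole had medians of -0.17, -0.24 and 0.06 in B6, CAST and F1 liver and of -0.20, -0.09 and 0.34 in the kidneys, within a range of -0.89 to 0.46.

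The 7 constitutive beta subunits were called only in F1 kidney, where 3 of them rose. Psmb5, which carries the chymotrypsin-like site, rose by 0.81 ± 0.20 (adjusted p = 0.0272, limma), from a mean of 264 ± 40.0 (SD, n = 3) to 462 ± 59.9 (n = 3). Psmb6, with the caspase-like site, rose by 0.79 ± 0.21 (adjusted p = 0.0383), and Psmb2, a structural subunit of the ring, by 0.71 ± 0.19 (adjusted p = 0.0423). In F1 kidney no TM sample of these 3 genes overlapped a control, and adding the reads of copies left Psmb5 and Psmb6 called (0.85 and 0.79). Psmb7, with the trypsin-like site, was at 0.28 there and at -0.73, -0.52 and -0.64 in B6, CAST and F1 liver, none of them called. Class medians were 0.13, 0.05 and -0.29 in the livers and -0.08, 0.16 and 0.71 in the kidneys.

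The immune catalytic subunits had the lowest median of all classes in each liver table, -0.97 in B6, -0.89 in CAST and -1.62 in F1. Psmb9, the counterpart of Psmb6, stood at 285, 96.7 and 171 in B6 liver controls and at 74.5 and 48.2 after TM. CAST liver had 139 and 87.2 against 43.8, 79.4 and 46.3, and F1 liver 178, 124 and 155 against 49.3 and 35.4. In all 3 livers every TM sample lay below every control. Psmb9 fell by 1.82 ± 0.44 on the log2 scale in F1 liver (adjusted p = 0.0109, limma). The B6 and CAST values, -1.47 ± 0.44 (adjusted p = 0.0607) and -1.0 ± 0.35 (adjusted p = 0.0647), were not called.

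Psmb10, the counterpart of Psmb7, had 449, 294 and 389.7 in B6 liver controls and 277 and 129.7 after TM. In CAST liver the values were 246 and 219.8 against 119.8, 192 and 153, and in F1 liver 265, 226 and 365 against 134 and 60.7. Again the groups were apart in each liver table. The fall of 1.62 ± 0.44 in F1 liver passed the test (adjusted p = 0.0245, limma), whereas -0.97 ± 0.37 in B6 (adjusted p = 0.133) and -0.61 ± 0.26 in CAST (adjusted p = 0.13) did not.

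Psmb8, the counterpart of Psmb5, was at 315, 177 and 198 in B6 liver controls and at 215 and 74.3 after TM, so that the groups overlapped. They were apart in CAST liver (154 and 89.0 against 62.8, 55.4 and 71.0) and in F1 liver (156, 87.5 and 112 against 61.1 and 36.9). Its fold changes of -0.81 ± 0.45, -0.89 ± 0.31 and -1.26 ± 0.46 were not called (adjusted p of 0.336, 0.0636 and 0.112, limma). In CAST liver Psmb8 was called lower by edgeR and DESeq2 (0.0447 and 0.0452), and DESeq2 also called Psmb9 lower in B6 and CAST liver (0.0234 and 0.0475). With edgeR Psmb9 was not called in B6 or CAST liver.

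None of the 3 was called in kidney. Psmb9 had 62.2, 56.1 and 65.6 in B6 kidney controls and 67.2, 38.2 and 52.0 after TM. In CAST kidney it had 57.2, 55.9 and 30.1 against 38.2, 31.7 and 38.9, and in F1 kidney 59.8, 32.1 and 29.7 against 34.3, 34.7 and 35.4. The groups of Psmb9 overlapped in every kidney table. Psmb10 had 106, 108 and 111 against 119, 87.0 and 109 in B6 kidney, 112, 90.01 and 71.5 against 123, 101 and 92.7 in CAST kidney, and 36.4, 67.3 and 69.6 against 89.1, 72.04 and 73.3 in F1 kidney. Psmb8 had 81.5, 50.5 and 73.7 against 106, 46.2 and 90.5 in B6, 60.7, 41.9 and 37.6 against 54.9, 43.6 and 49.6 in CAST, and 67.6, 42.8 and 38.3 against 32.6, 48.9 and 34.6 in F1. The Psmb10 groups were apart in F1 kidney alone, with TM above control (0.48 ± 0.28), and the Psmb8 groups overlapped in each of the 3.

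**Figure D3:**
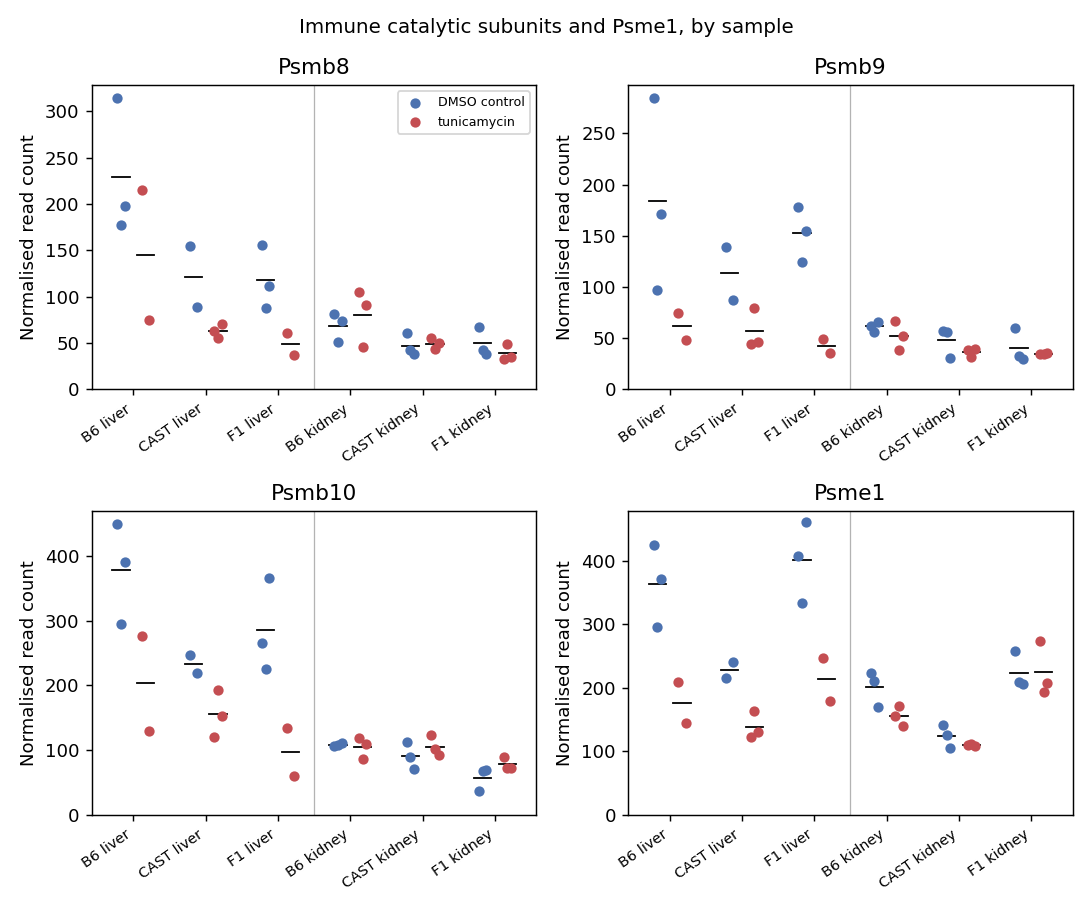
Normalised read count of Psmb8, Psmb9, Psmb10 and Psme1 in each of the 33 samples, by table, with the group mean as a bar. Control samples reach 315, 285, 449 and 461 in the liver tables, left of the grey line, where the TM samples lie lower, and the groups largely overlap in kidney.

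To compare each immune subunit with the constitutive subunit it replaces, the log2 ratio of their counts was taken within each library, and the difference between TM and control was averaged over the 6 tables and tested by permuting the treatment within tables (100000 resamples, two-sided, adjusted over the 3 pairs). The Psmb9 to Psmb6 ratio was lower after TM in 6 of 6 tables, by a mean of -1.02 (permutation p = 1e-05, the smallest these permutations can give, adjusted p = 3e-05). By table the difference was -1.64, -1.05 and -1.54 in B6, CAST and F1 liver and -0.35, -0.59 and -0.94 in the kidneys. The Psmb8 to Psmb5 ratio was lower in 5 of 6 tables, by a mean of -0.87 (permutation p = 4e-05, adjusted p = 6e-05), from -1.33 in F1 liver to 0.18 in B6 kidney. The permutation took all libraries as independent, although both tissues came from the same mice, so the p over 6 tables is too small. In the 3 livers alone the Psmb9 ratio differed by -1.41 (permutation p = 0.00105) and the Psmb8 ratio by -1.29 (permutation p = 0.00108), and in the 3 kidneys alone by -0.62 (permutation p = 0.00106) and -0.46 (permutation p = 0.0621). Both liver p were at about the smallest value that permutations within the 3 liver tables can give. Exchanging treatment only within pairs of the same replicate number gave p of 0.00013 and 0.00114 over the 6 tables (permutation). This run left out the liver libraries without a partner. It also paired samples in every table, although the numbers were taken to pair them only in B6 and CAST kidney. The mean difference of the Psmb10 to Psmb7 ratio, -0.10 (permutation p = 0.446), joined opposite directions in the tissues, with -0.24, -0.09 and -0.98 in B6, CAST and F1 liver and 0.31, 0.20 and 0.20 in the kidneys. Its mean was -0.44 in the livers alone (permutation p = 0.0533) and 0.24 in the kidneys alone (permutation p = 0.0169). In F1 kidney the Psmb8 ratio difference of -1.14 went with a rise of Psmb5 and not with a called fall of Psmb8. The Psmb9 ratio difference there, -0.94, went with a called rise of Psmb6 (0.79) and a Psmb9 value of -0.14. Psmb6 and Psmb9 were at 0.09 and -0.25 in B6 kidney and at 0.25 and -0.34 in CAST kidney. Adding the reads of copies to Psmb5 and Psmb6 left the differences of these 2 ratios at -1.66 to 0.13 over the tables.

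Psme1 and Psme2 encode the activator that is induced with the immunoproteasome by interferon gamma. Psme1 had 425, 295 and 371 in B6 liver controls and 209 and 145 after TM. CAST liver stood at 216 and 241 against 123, 164 and 131, and F1 liver at 408, 334 and 461 against 248 and 179. Every TM sample of Psme1 was below every control in the 3 livers, yet limma called none of the fold changes: -1.04 ± 0.31 (adjusted p = 0.0552), -0.72 ± 0.24 (adjusted p = 0.0608) and -0.91 ± 0.40 (adjusted p = 0.21). DESeq2 called Psme1 lower in all 3 (adjusted p of 0.00995, 0.0378 and 0.0368), and edgeR in CAST and F1 liver (0.0387 and 0.0479). In B6 kidney the controls were at 223, 210.5 and 169.8 and the TM samples at 155, 171 and 139.7. In CAST kidney they were at 142, 127 and 105 against 109.9, 111 and 108, and in F1 kidney at 257, 209 and 206 against 274, 193 and 208. All 3 kidney tables overlapped. The kidney fold changes were -0.36, -0.17 and 0.00, and neither Psme1 nor Psmb9 had a positive value in any of the 6 tables. Adding the reads of its copies gave -0.98, -0.70 and -0.91 in the livers.

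Psme2 itself showed overlapping groups in all tables but F1 kidney. Its counts were 59.1, 39.1 and 49.4 against 57.9 and 44.3 in B6 liver, and 35.5 and 27.2 against 32.8, 24.0 and 25.7 in CAST liver. In F1 liver, where fewer of its reads went to copies, they were 475, 297 and 509 against 379.7 and 236. B6 kidney had 38.6, 25.3 and 29.7 against 39.3, 25.1 and 34.0, and CAST kidney 33.4, 31.5 and 23.5 against 34.6, 34.7 and 19.0. Psme2 in F1 kidney was the exception, with 203, 248 and 218 in the controls and 289, 253 and 258 after TM. With the reads of Psme2b and Gm7928 added, Psme2 was at -0.23, -0.29 and -0.51 in B6, CAST and F1 liver. The kidney values were -0.24, 0.02 and 0.30. TM and control were then apart in CAST liver (below) and F1 kidney (above). No table gave a call, with or without these reads. Psme2b is itself a member, in the activator class, so reads of this family enter the member counts under both genes.

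Other interferon-inducible genes were also called lower in liver. Of a list of 15, 8 were called lower in B6 liver (6.45% of all genes), 3 of the 14 tested in CAST liver (10.4%), where 6 had positive values, and 3 of 15 in F1 liver (4.15%), with none higher, and list medians of -1.46, -0.19 and -0.88. In the kidneys 1 was called lower in B6 (7.77% of all genes) and none in CAST or F1. In each kidney 1 was called higher (9.73%, 8.69% and 7.54%), and the medians were 0.08, 0.19 and 0.16. Igtp, an interferon-inducible GTPase, was called lower in all 3 livers (-2.65, -1.51 and -1.45), as was Irf1 (-1.66, -1.40 and -1.80), a transcription factor known to drive Psmb9. Iigp1, another such GTPase, ranged from -3.95 in B6 liver to 0.18 over the 5 tables in which it was tested and was called lower in 2, and Cxcl10, a chemokine, had positive fold changes in all 6 and was called higher in 1. The genes of class I antigen processing were divided. Calr and Pdia3, ER chaperones, were called higher in 6 of 6 tables (means of 2.47 and 2.37), Nlrc5, the transactivator of class I genes, was called lower in B6 and CAST liver (-1.10 and -1.62), and Tap1, the peptide transporter encoded beside Psmb9, was at 0.07, 0.77 and -0.21 in the livers and was called higher in CAST. Irf1 and Tap1 were chosen after their values were seen. Over the 10 genes the calls in the livers were 2, 3 and 2 higher (4.8%, 11.1% and 3.42% of all genes) and 2, 1 and 0 lower (6.45%, 10.4% and 4.15%). In each kidney 2 were called higher (9.73%, 8.69% and 7.54%).

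A list of 7 leukocyte markers had no call in any table. Their summed level ranged from 1396 to 2460 in B6 liver controls and from 1604 to 4567 after TM, and from 1278 to 1583 against 1041 to 1932 in CAST liver. In F1 liver every TM sum, 821 and 1264, lay below the controls at 1280.1 to 1714. No marker was at 0 in all samples. The hepatocyte markers also had no call in liver, but their sums were lower in every TM sample than in every control there, at 550021 to 568797 against 949939 to 1059130 in B6, 372166 to 505070 against 606525 to 906804 in CAST and 218009 to 400721 against 594277 to 735298 in F1. The endothelial sums were likewise below the controls in B6 (1144 to 1391 against 1737 to 2169) and CAST liver (868 to 1201 against 1216 to 1406) and overlapped in F1 liver. Of the 3 markers, Kdr, the receptor of vascular endothelial growth factor, was called lower in B6 liver (-1.07 ± 0.28, adjusted p = 0.0324, limma), where 1 marker had a positive value. The other markers, Cdh5 and Pecam1, had means of -0.10 and -0.07 over the tables and no call. Sums of fibroblast and stellate cell markers lay below the controls in CAST liver (154 to 182 against 222 to 448, median -0.92) and overlapped in the other two livers, with no call. The part of these cells in the liver values was not tested.

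In the ATPase ring, which unfolds substrates and threads them into the barrel, 3 calls were made, all in kidney. Psmc2 rose by 0.70 ± 0.14 in CAST kidney (686 ± 21.3 to 1119 ± 65.6, SD, n = 3 each, adjusted p = 0.0125, limma) and by 0.92 ± 0.21 in F1 kidney (464 ± 105 to 866 ± 45.4, adjusted p = 0.0218). Psmc5 rose by 0.82 ± 0.20 in F1 kidney (adjusted p = 0.028). In that table all 6 ATPases had every TM sample above every control, with fold changes from 0.53 to 0.92, while in the liver tables the class lay between -0.36 and 0.58 and its medians were -0.09, 0.16 and -0.05.

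Among the 11 non-ATPase subunits Psmd8, a subunit of the lid, had the highest mean response. Its counts were 1670.0, 910.2 and 1531 in B6 liver controls and 4082 and 2397 after TM. CAST liver had 1259.8 and 1697 against 2517, 3090.3 and 3217, and F1 liver 1185, 819.6 and 1252 against 2743 and 1589. In each liver the TM samples lay above the controls. The change was called in CAST liver (1.00 ± 0.23, adjusted p = 0.0131, limma), and stood at 1.24 ± 0.36 (adjusted p = 0.0536) in B6 and 0.97 ± 0.44 (adjusted p = 0.241) in F1. DESeq2 called Psmd8 in both of these livers (adjusted p of 0.00378 and 0.0183), and edgeR in neither. Leaving out the libraries high in receptor genes gave 1.35 in B6 and 1.17 in F1, each with 1 TM sample left. In kidney Psmd8 had 1338, 996 and 1029 against 1418, 1083 and 1198 in B6, 1342, 911 and 1001 against 1504, 1211 and 1166 in CAST, and 679, 739 and 754 against 1371, 1058 and 1066 in F1. The groups overlapped in B6 and CAST kidney and were apart in F1 (0.68 ± 0.19, adjusted p = 0.054).

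Psmd1, a large scaffold subunit at the base, went the other way in the parental livers. It had 1231, 961 and 1498 in B6 liver controls and 808 and 722 after TM, and 866 and 1309.7 against 717, 562 and 640.1 in CAST liver. F1 liver overlapped, at 907, 589 and 836 against 888 and 563. B6 kidney stood at 1452, 1286 and 1221 against 1518, 1414 and 1249.6. CAST kidney had 919.5, 992 and 1015 against 1232, 1180.0 and 1099.6, and F1 kidney 489, 788 and 738 against 1102, 964 and 808. Psmd1 was thus lower in all TM samples of B6 and CAST liver and higher in all TM samples of CAST and F1 kidney, with no call by limma in any table (-0.66, -0.74, -0.11, 0.08, 0.26 and 0.53). In CAST liver edgeR and DESeq2 called Psmd1 lower (adjusted p of 0.0453 and 0.0211), as did limma with TMM scaling (0.0436).

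Psmd12, a lid subunit, showed a smaller shift of the same kind. Counts were 754, 452 and 709.8 against 549 and 487 in B6 liver, 544 and 620.3 against 502, 445 and 446 in CAST liver, and 563, 387 and 555 against 553 and 406 in F1 liver. In kidney they were 904, 749 and 708 against 882, 732 and 788 in B6, 752, 711 and 695 against 941, 864 and 829 in CAST, and 426, 494 and 465 against 768, 631 and 677 in F1. TM and control were apart for Psmd12 in CAST liver (below) and in CAST and F1 kidney (above), again with no call.

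A further 3 non-ATPases were called, all in F1 kidney. The ubiquitin receptor Psmd4 rose by 0.92 ± 0.22 (461 ± 101 to 861 ± 119, SD, n = 3 each, adjusted p = 0.0259, limma). The lid subunits Psmd6 and Psmd13 rose by 0.88 ± 0.19 (adjusted p = 0.0155) and 0.82 ± 0.21 (adjusted p = 0.0369). The other 7 were not called in any table, among them Psmd14, the deubiquitinase of the lid, at -0.20 to 0.69, and Psmd7, its partner, at 0.17 to 0.35 in all 6 tables. Class medians were 0.01, -0.14 and -0.04 in liver and 0.08, 0.29 and 0.58 in kidney. The chaperones of the ATPase ring, Psmd5, Psmd9 and Psmd10, had no call and medians between -0.17 and 0.24.

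Psme3, an activator found in the nucleus that acts without ubiquitin, had the highest mean log2 fold change of the 47 members, 0.84, and was the only one with every TM sample above every control in all 6 tables. B6 liver had 444, 344 and 396 in the controls and 818 and 607 after TM. CAST liver had 314 and 332 against 474, 469 and 524, and F1 liver 293, 205 and 293 against 799 and 374. In B6 kidney the counts were 790.3, 632 and 608 against 1367, 976 and 956. They were 555, 609 and 734 against 1047, 1122 and 1153 in CAST kidney, and 296, 475 and 441 against 858, 792 and 793 in F1 kidney. Psme3 was called in the 3 kidney tables, at 0.69 ± 0.16 (adjusted p = 0.0132, limma), 0.82 ± 0.16 (adjusted p = 0.011) and 1.04 ± 0.22 (adjusted p = 0.013). The liver values were of like size, 0.84 ± 0.29, 0.60 ± 0.21 and 1.07 ± 0.42, without a call by limma (adjusted p of 0.0927, 0.0689 and 0.153), while DESeq2 called Psme3 in all 3 (adjusted p of 0.00943, 0.0293 and 0.0321). With edgeR Psme3 was not called in any liver.

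Psme4, the activator known from chromatin and DNA repair, ranged from -0.65 in B6 liver to 0.47 in F1 kidney with no call by limma. In B6 liver DESeq2 called it lower (-0.63, adjusted p = 0.0498). Psmf1, an inhibitor of the core particle, lay higher in all TM samples than in all controls in every table but F1 liver, but by no more than 0.51, and was not called.

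**Figure D4:**
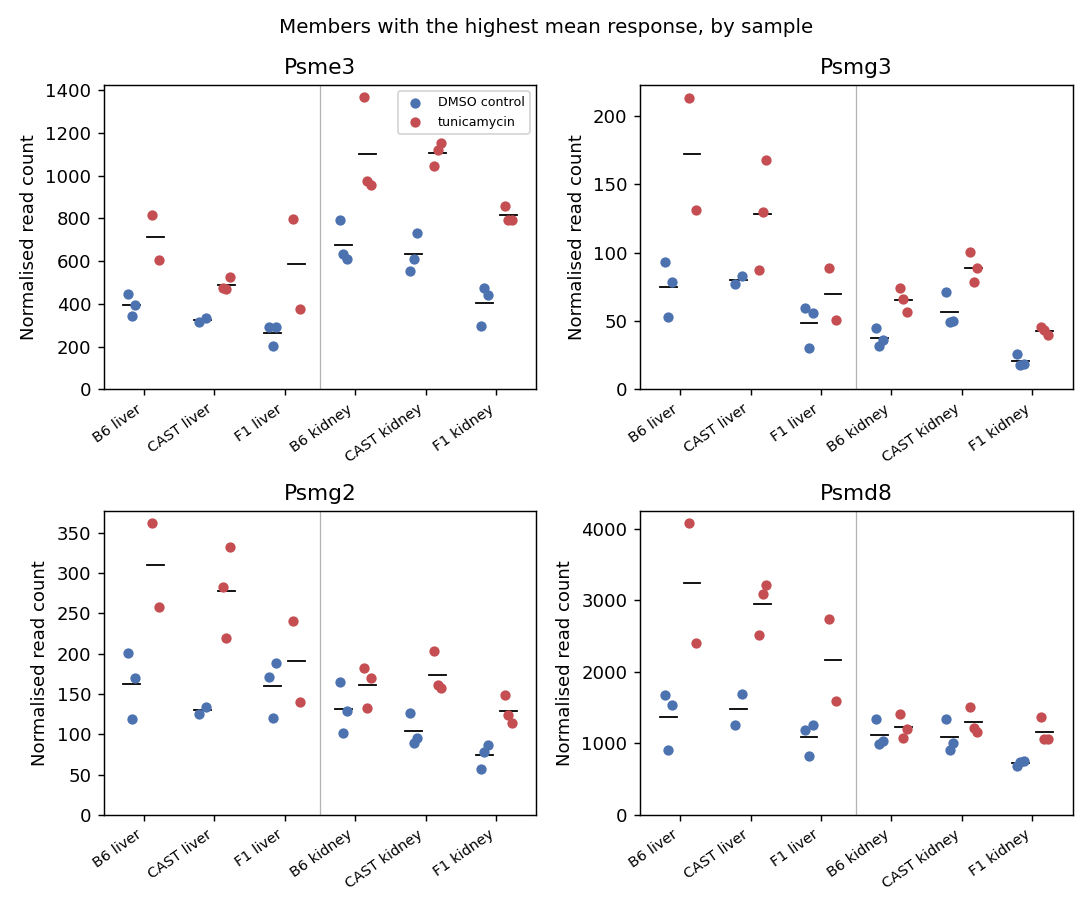
Normalised read count of Psme3, Psmg3, Psmg2 and Psmd8, the members with the highest mean response, in each of the 33 samples, by table, with the group mean as a bar. TM samples lie above all controls of their table in 6, 5, 4 and 4 of the 6 tables.

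The assembly factors of the core act as pairs, Psmg1 with Psmg2 and Psmg3 with Psmg4, on the forming alpha ring. Psmg3 had 93.2, 53.2 and 78.7 in B6 liver controls and 213 and 131 after TM, 76.7 and 82.6 against 86.9, 129 and 168 in CAST liver, and 59.2, 29.9 and 55.8 against 88.8 and 50.6 in F1 liver. In B6 kidney it had 45.0, 31.8 and 35.9 against 74.1, 65.9 and 56.4, in CAST kidney 71.5, 48.9 and 49.8 against 100.3, 78.3 and 88.5, and in F1 kidney 26.0, 17.6 and 18.8 against 45.4, 43.6 and 39.4. F1 liver was the 1 table in which the Psmg3 groups overlapped. The rise was called in B6 kidney, at 0.79 ± 0.23 (adjusted p = 0.0319, limma), and the uncalled values were 1.18, 0.63, 0.53, 0.66 and 1.03 in B6, CAST and F1 liver and CAST and F1 kidney. With the replicate number as a block, which the samples of CAST kidney were taken to share, Psmg3 was called there too (0.66, adjusted p = 0.0115).

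Psmg4, its partner, had overlapping groups in every table. Counts were 96.2, 56.5 and 62.2 against 122 and 78.3 in B6 liver, 45.1 and 49.95 against 47.2, 90.5 and 62.8 in CAST liver, and 47.5, 23.0 and 50.9 against 54.8 and 44.8 in F1 liver. In kidney they were 79.4, 58.0 and 76.4 against 77.6, 55.4 and 60.02, 131, 58.5 and 56.4 against 74.0, 70.4 and 54.6, and 59.8, 38.2 and 59.5 against 62.5, 43.6 and 55.6. The values of Psmg4 ran from -0.20 to 0.48.

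Psmg2 stood at 200.4, 118 and 169 in B6 liver controls and at 362 and 258 after TM, and in CAST liver at 125 and 134 against 282, 219.8 and 332. F1 liver overlapped, at 171, 119.7 and 189 against 240.2 and 140.3, as did B6 kidney, at 165, 101 and 129 against 182, 133 and 169. CAST kidney had 126, 89.1 and 95.9 against 203, 161 and 157, and F1 kidney 57.2, 78.0 and 86.8 against 149, 125 and 114. Psmg2 was called in CAST liver (1.08 ± 0.25, adjusted p = 0.0128, limma) and CAST kidney (0.74 ± 0.21, adjusted p = 0.0432). Fold changes in B6 liver (0.94 ± 0.33, adjusted p = 0.104) and F1 kidney (0.81 ± 0.23, adjusted p = 0.0525) were not called although the groups were apart.

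Psmg1, which pairs with Psmg2, had overlapping groups throughout. It had 279.5, 133 and 243 against 325 and 153 in B6 liver, 167 and 242 against 154, 246 and 193 in CAST liver, and 182, 87.5 and 157 against 166 and 109 in F1 liver. Kidney values were 205, 205 and 207 against 229, 198 and 186 in B6, 173, 125 and 148 against 177, 152 and 123 in CAST, and 107, 126 and 133 against 192, 135 and 114 in F1. No fold change of Psmg1 was beyond -0.05 or 0.24. Pomp, the maturation factor of the beta ring that lies outside the Psm names, had negative values in all 6 tables, between -0.49 (B6 kidney) and -0.07 (F1 kidney), with no call.

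Differences in response between the tissues were tested directly, as the difference of the log2 fold change in liver and kidney averaged over the 3 genotypes in 1 fit of all 33 samples, with a call at an adjusted p under 0.05. Of the 47 members, 1 had a higher response in liver (5.83% of the 14695 genes tested) and 9 a higher response in kidney (15.6%). Both counts were near these shares of all genes. Psmd8 had the higher response in liver, at 1.07 in liver and 0.36 in kidney (difference 0.71 ± 0.22, adjusted p = 0.0179, limma). The immune subunits were among the 9, with Psmb10 at -1.07 in liver and 0.22 in kidney (difference -1.28 ± 0.26, adjusted p = 0.000413), Psmb9 at -1.43 and -0.24 (difference -1.19 ± 0.29, adjusted p = 0.00357) and Psmb8 at -0.99 and -0.02 (difference -0.97 ± 0.31, adjusted p = 0.0233). Psme1 differed by -0.71 ± 0.18 (adjusted p = 0.00355) and Psmd1 by -0.80 ± 0.19 (adjusted p = 0.00244). The remaining 4 were Psmd12 (-0.52, adjusted p = 0.022), Psma3 (-0.51, adjusted p = 0.029), Psmb7 (-0.61, adjusted p = 0.0343) and Psmd2 (-0.70, adjusted p = 0.0442). With the reads of copies added, Psma3 differed by -0.31 ± 0.20 and was no longer called (adjusted p = 0.298).

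The calls of Psmb10, Psmb9, Psmd1 and Psme1 were kept without each of the 33 libraries in turn. Psmd8 was lost without B6 liver TM 1 (0.58, adjusted p = 0.0597), Psmd12 without F1 liver TM 2 (-0.44, adjusted p = 0.0586), and Psmb8 without B6 liver TM 3, CAST liver control 2 or F1 liver TM 2 (-0.72, -0.84 and -0.85, adjusted p of 0.0857, 0.0659 and 0.0654). Psma3, Psmb7 and Psmd2 were kept in 27, 18 and 13 of the 33, the adjusted p reaching 0.0709, 0.0968 and 0.157 in the others. The number higher in kidney fell to 4 when F1 liver TM 2 was left out and rose to 17 when TM 1 of that group was. No member passed the test within a single genotype, where B6, CAST and F1 alone gave 0 calls in either direction against 1.21% and 3.56%, 1.33% and 2.03%, and 0.351% and 1.34% of all genes. The fit did not model that livers and kidneys came from the same mice. An alternative took samples of the same genotype, treatment and replicate number as 1 mouse, which the labels do not state. It gave 0 members higher in liver and 7 higher in kidney, against 666 and 1761 of the 14695 genes tested. Psmd8, Psmd12 and Psmd2 lost their calls in it.

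**Figure D5:**
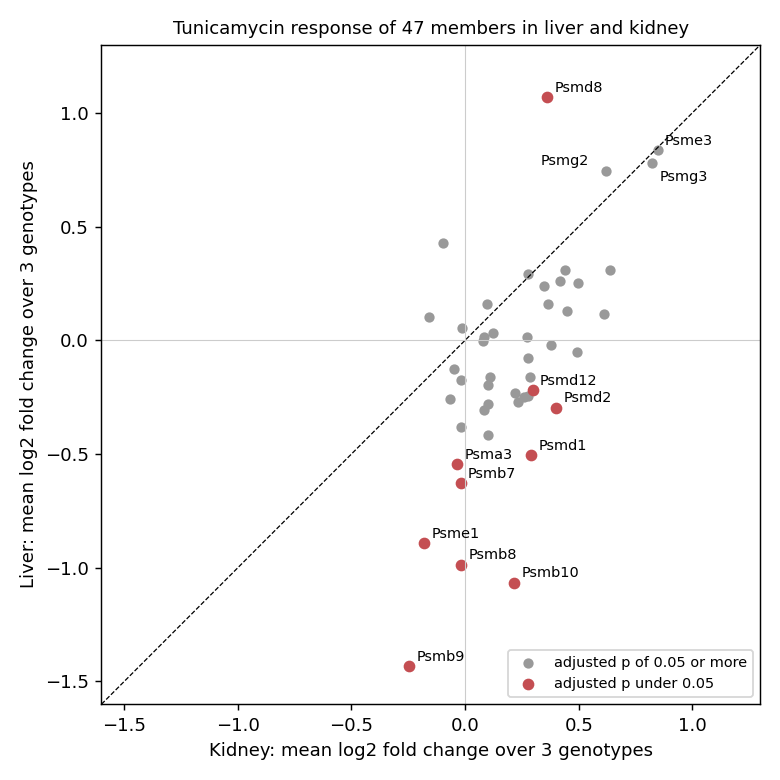
Mean log2 fold change over the 3 genotypes in kidney (x axis) and liver (y axis) for the 47 members, red where the difference had an adjusted p under 0.05, with the line of equal response dashed. Psmd8 lies above the line, the 3 immune subunits and Psme1 far below it, and Psme3, Psmg2 and Psmg3 close to it.

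Whether the response depended on genotype was tested within each tissue with an F-test over the 3 genotypes. In liver 0 of 47 members passed (0.0129% of all genes did), and in kidney 0 of 47 (0.0821%). At an unadjusted p under 0.05 there were 0 members in liver and 14 in kidney with limma, and 1 and 5 with edgeR, which also called none. Of all genes 4.35% and 5.49% were at that level with limma. The 14 became 3 without B6 kidney control 1 or F1 kidney TM 1, 4 without B6 kidney TM 2 and 6 without B6 kidney TM 3. It became 7 without CAST kidney TM 2 and 8 without F1 kidney control 1. The highest count with 1 library left out was 16, without CAST kidney control 1 or TM 1. With the replicate number as a block, F1 kidney included, it was 21. The smallest unadjusted p was that of Psmd13 in kidney, 0.00778 (adjusted p = 0.689, limma), followed by Psmc4 and Psmc5 in the same tissue (0.00937 and 0.0193). Between CAST and B6 alone, whose reads were aligned the same way, 0 of 47 members differed in liver (0.0239% of all genes did) and 0 of 47 in kidney (0.0673%). Taken gene by gene, the test does not decide whether the more frequent rises in F1 kidney differ from those of the parents. F1 reads were also aligned another way than parental reads, so genotype and aligner cannot be told apart in that comparison.

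Outside the Psm names, a list covered the pathway that brings the transcription factor Nfe2l1 (NRF1) out of the ER membrane. This pathway is known to restore proteasome synthesis when proteolysis falls short. Higher calls were made for 1 of 8, 2 of 7 and 2 of 8 genes in B6, CAST and F1 liver (4.8%, 11.1% and 3.42% of all genes). In the kidneys 5, 5 and 4 of 8 were called higher (9.73%, 8.69% and 7.54%), with none lower in any table. Nfe2l1 itself was called in the 3 kidneys, with counts 2.18-, 2.30- and 2.78-fold the controls on the fitted scale in B6, CAST and F1, and at 1.07-, 1.47- and 1.36-fold in the livers it was not. Syvn1, the ubiquitin ligase of ER-associated degradation, was called in all 6 tables at 3.68 to 4.31, Ufd1, a cofactor of the extracting ATPase, in 5 (0.70 to 1.37) and the ATPase Vcp in 3 (0.67 to 1.41).

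Of 15 proteasome-associated factors tested, 0, 1 and 0 were called higher in B6, CAST and F1 liver (4.8%, 11.1% and 3.42% of all genes). In each liver 1 was called lower (6.45%, 10.4% and 4.15%). The kidneys had 5, 4 and 6 called higher (9.73%, 8.69% and 7.54%) and none lower. Txnl1, a thioredoxin-like protein bound to the regulatory particle, had the highest mean (0.97, called in 4 tables), followed by Zfand5, known to activate the proteasome (0.88, called in 3). Adrm1, a ubiquitin receptor of the regulatory particle, was called in F1 kidney (0.99 ± 0.20, adjusted p = 0.0123, limma), from 323 ± 54.2 (SD, n = 3) to 637 ± 79.7 (n = 3). Of the 5 ubiquitin genes, 1 was called higher in CAST liver (11.1% of all genes) and 1 in CAST kidney (8.69%), with no other call. Ubb had the highest mean, 1.01.

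Promoter windows from RefSeq (GRCm38.p6, 250 bases before to 50 after the start) matched 40 of the 47 members and were searched on both strands for short motifs. The antioxidant response element TGACNNNGC, the kind of site NRF1 binds, was in 6 of them, those of Psmb5, Psmb6, Psmc6, Psmd9, Psmd12 and Psme4, and in 12.47% of all 27025 windows. The interferon-stimulated element, GAAA and GAAA with any 2 bases between, was in 5, among them Psme1 and none of the immune catalytic subunits (3.489% of all windows), and the gamma-activated site TTCNNNGAA in 3, among them Psmb8 (8.466%). The ER stress element, CCAAT and CCACG with any 9 bases between, was in 0 of the 40 (0.1295%), as was TGACGTGG (0.6068%), TGATGNAA was in 1, Psmd13 (4.056%), and CCAAT alone was in 13 (37.92%).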

How the data were processed

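RNA of liver and kidney was sequenced as paired reads of 50 bases from stranded libraries depleted of ribosomal RNA. Per the methods, the authors trimmed reads with seqtk 1.2, aligned parental reads with Bowtie2 2.2.9 to the strain genomes (Ensembl release 103) and F1 reads with STAR 2.6 to a genome masked with BEDTools 2.28.0, and handled alignments with SAMtools 1.12. Which tool counted reads per gene was not stated in the sources used. The values deposited by the authors are a normalised signal, gene counts divided by DESeq2 1.28.1 size factors within each table. Levels are therefore compared only within a table, and the tissue and genotype tests compare responses.

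Dividing by the steps of the values gave whole reads for 100% of values within 0.01. Genes with a mean of at least 5 were tested as log2(normalised count + 1) with limma 3.58.1 (R 4.3.3, trend), with Benjamini-Hochberg adjustment over the table. Fold changes are on that scale, which understates the change of low genes. The tissue and genotype tests used all groups they compare in 1 fit. Ratios were tested in Python 3.11.15, and copies were found with BLAST 2.17.0. The code was tested on simulated data. Per the methods, treatment was assigned at random, and the genotypes were kept together by litter and separately once treated. Which samples of a group shared a cage or a day is not stated, so p-values measure the spread between these samples.

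The members and gene lists were chosen with earlier results of these data known. Sample values were given for the 2 members with the highest and the 2 with the lowest mean response, the immune subunits, Psme1, Psme2, the Psmg factors, members called lower, and the 6 with the smallest p in the tissue test. For other lists, up to 3 genes with the largest absolute mean response were named, with Pomp, Adrm1, Nfe2l1 and Hspa5. A list gene that this rule would name is not reported here. Psmg2 and Psmd8 belong under these parts of the rule too. Other filters, scalings and tools (the count models of edgeR 4.0.16 and of DESeq2 1.42.0, run on whole reads), a replicate block and leaving out libraries were tried as alternatives.

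Whether replicate numbers pair TM and control samples was checked by the correlation of their deviations from group means. All 3 same-numbered pairs were above 0.1 in B6 kidney (0.252 to 0.477) and in CAST kidney (0.252 to 0.533), so the numbers were taken to pair the samples there. The lowest was -0.027 in F1 kidney, and the liver tables had 2 pairs each.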

Additional observations from a re-analysis of the deposited data

Results flagged for a closer look

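The responses of 10 members to TM differed between liver and kidney when averaged over the 3 genotypes (limma, adjusted p under 0.05). Counts in both directions were near the shares of all genes tested, 5.83% higher in liver and 15.6% higher in kidney. Each value is the liver response less the kidney response on the log2 scale. Psmb10 differed by -1.28, Psmb9 by -1.19 and Psmb8 by -0.97. Psmd1 differed by -0.797, Psme1 by -0.711, Psmd2 by -0.697 and Psmb7 by -0.61. Psmd12 differed by -0.517 and Psma3 by -0.509, the latter with most parental reads on copies. Psmd8 alone had the higher response in liver, by 0.708.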

How the results depend on the processing

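In B6 liver (0 higher, 0 lower) the counts of called members were 2 and 2 without the filter on low values. They were 2 and 2 with a mean of at least 20, 3 and 3 with DESeq2, and 2 lower with the median set to 0. Leaving out the libraries high in receptor genes left 1 TM sample in B6 and F1 liver, and counts from these fits are not given. In CAST liver (2 and 1) the lower count was 0 without the filter, 2 with a mean of at least 20, 3 with TMM, 4 with edgeR, 5 with DESeq2 and 0 with the reads of copies added, an alternative chosen after seeing the data. Without limma's trend CAST liver gave 0 and 0, F1 liver 0 lower, B6 kidney 1 higher and F1 kidney 0 higher. In F1 liver (0 and 2) the lower count was 0 without the filter, and DESeq2 gave 2 higher. The 9 of F1 kidney became 16 with the median set to 0 and 15 with DESeq2. Of all 24064 genes, 1815 were called higher there in the main run, 2628 with the median set to 0 and 2222 with DESeq2. In the tissue test the 9 higher in kidney became 5 with the median set to 0, and within B6, CAST or F1 alone both directions gave 0 and 0.

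Leaving out 1 library at a time gave 0 to 2 higher and 0 to 4 lower in B6 liver, 0 to 2 and 0 to 2 in CAST liver, 0 to 1 and 0 to 3 in F1 liver, and 0 to 2, 0 to 6 and 0 to 13 higher in B6, CAST and F1 kidney. The tissue test gave 0 to 1 higher in liver and 4 to 17 higher in kidney, and the genotype tests 0. The mean ratio differences ran from -0.96 to -0.79 (Psmb8 to Psmb5), from -1.08 to -0.95 (Psmb9 to Psmb6) and from -0.17 to -0.04 (Psmb10 to Psmb7). In the kidney tables alone the first was -0.46 (permutation p = 0.0621) and the last turned to 0.24 (permutation p = 0.0169). The cause was not tested.

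With the replicate number as a block, 4 members were called higher in CAST kidney against 3 without it, Psmg3 being added, and 2 in B6 kidney as before. Where the numbers were not taken to pair the samples, the block gave 4 higher and 10 lower in B6 liver and 3 lower in CAST liver. It gave 2 higher and 3 lower in F1 liver and 14 higher in F1 kidney. In the tissue test the block joined liver and kidney samples of the same genotype, treatment and number. There 0 members were higher in liver and 7 higher in kidney. Over single members, 3997 values under other settings stayed on their side of the threshold, 110 gained and 69 lost a call, and none of these changed sign while called. With 2 or 3 samples a group, calls near the threshold depend on single libraries.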
